A study of Quercus x morisii and Quercus suber and Quercus ilex with 16 samples.

Results

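A locus matched to plantacyanin (LOC111987095, best Arabidopsis match AT2G02850) and a locus matched to MLP-like protein 28 (LOC111998487, best match AT1G70830) were followed in outer bark of oaks, as 2 of the 47292 loci of the expression table. They were chosen from their values in these libraries, because both reach their highest level in rhytidome-like bark. Their levels in that bark, and every difference that involves it, are therefore given as a description with no test. The names rest on protein similarity to Arabidopsis and no other evidence of identity was used. Both loci were among the 25617 whose rlog averaged at least 1, the set over which tests were made.

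Plantacyanins are small blue copper proteins of the phytocyanin family, which are secreted and bind a single copper ion that can pass electrons. In Arabidopsis, plantacyanin is known from the transmitting tract of the pistil and from anthers, and its mRNA is a target of the microRNA miR408, which accumulates when copper is short. Major latex proteins (MLPs) were first found in the latex of opium poppy and form a branch of the Bet v 1 superfamily, whose members hold hydrophobic ligands in an internal cavity. MLPs are known in several plants for responses to pathogens and to drought or salt. Outer bark is made of periderms, in which a meristem, the phellogen, lays down suberized phellem outwards.

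The study sequenced RNA of the inner face of outer bark from trees of a mixed forest, in 16 libraries with 4 for each of 4 barks. Rhytidome-like bark came from 4 hybrids of holm oak (Quercus ilex) and cork oak (Quercus suber) and is a rhytidome whose periderms lie closer together and are thicker than those of holm oak, with suberized inactive phloem between them in some of these hybrids. Cork-like bark came from 1 hybrid, a backcross to cork oak with thick phellem, sampled on its north, east, south and west sides. Cork came from 4 cork oaks whose bark had not been stripped before, rhytidome came from 4 holm oaks, and all of these and the rhytidome-like libraries were taken on the south side. The cork-like libraries have no replicate trees, so their spread is that of 1 trunk. P-values with this bark do not cover differences between cork-like trees. No treatment of the trees and no exact ages are stated by the study. Samples of rhytidome and rhytidome-like bark also held living secondary phloem per the study, and none of the loci named in the sources matched the phloem or xylem markers listed for this work, so the share of these tissues was not tested.

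Values are the regularized log2 of read counts (rlog), which the authors scaled for library depth. A difference of 1 is a doubling, and differences of loci with few counts are drawn toward 0. Counts per library were not used here, so no counting error is given. Reads of every bark were mapped to the cork oak genome, and an effect of sequence differences between the species on mapping cannot be told apart from a difference in RNA level between them. Fewer cells of a type and less RNA per cell cannot be told apart in these bulk samples either.

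The plantacyanin locus was highest in rhytidome-like bark and lowest in cork. It stood at 13.82, 14.83, 15.90 and 15.95 rlog in rhytidome-like trees 21, 18, 14 and 20. In cork-like bark it was at 10.05 on the north side, 11.06 on the west, 11.71 on the south and 11.78 on the east. The north side was thus the low one, and the other sides lay within 1 of each other. Cork trees 89, 91, 87 and 90 had 8.41, 9.09, 9.20 and 9.68. Rhytidome trees 94, 68, 67 and 33 had 11.15, 12.26, 12.33 and 12.67, with tree 94 below the other 3. All 4 rhytidome-like libraries lay above the other 12, and all 4 cork libraries lay below the other 12.

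By bark, the plantacyanin locus averaged 15.13 ± 1.01 rlog in rhytidome-like bark, 11.15 ± 0.80 in cork-like bark, 9.10 ± 0.52 in cork and 12.10 ± 0.66 in rhytidome (SD, n = 4 libraries each). The rhytidome-like mean exceeded rhytidome by 3.02 (8.13-fold), cork-like bark by 3.98 (15.7-fold) and cork by 6.03 (65.4-fold). It stood 4.53 above the mean of the parental barks, cork and rhytidome. The lowest rhytidome-like library was 1.15 above the highest of the other 12. Of the variance over the 16 libraries, 91.4% lay between bark means, a share that includes the high rhytidome-like level by which the locus was chosen.

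The MLP-like locus had the same highest and lowest bark and a wider spread. Rhytidome-like trees 21, 20, 18 and 14 had 11.84, 12.48, 12.90 and 15.61 rlog. Tree 14 was far above the other 3 rhytidome-like trees. Cork-like bark had 8.68 on the north side, 8.90 on the west, 9.88 on the south and 10.18 on the east, in the same order of sides as at the plantacyanin locus. Cork trees 89, 87, 90 and 91 had 5.01, 6.43, 6.66 and 7.34. Rhytidome trees 94, 33, 67 and 68 had 7.93, 8.50, 10.18 and 11.26, a range that enclosed all 4 cork-like libraries. Again all 4 rhytidome-like libraries were above the other 12 and all 4 cork libraries below the other 12.

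The MLP-like locus averaged 13.21 ± 1.66 rlog in rhytidome-like bark, 9.41 ± 0.73 in cork-like bark, 6.36 ± 0.98 in cork and 9.47 ± 1.53 in rhytidome (SD, n = 4 libraries each). The rhytidome-like mean exceeded rhytidome by 3.74 (13.4-fold), cork-like bark 13.9-fold and cork by 6.85 (115-fold), and it stood 5.29 above the mean of cork and rhytidome. The lowest rhytidome-like library, of tree 21, was 0.59 above the highest other library, of rhytidome tree 68. Without tree 14 the rhytidome-like mean was 12.41 and the SD 0.53 (n = 3), against 14.87 and 1.07 at the plantacyanin locus, so leaving out tree 14 narrowed the spread at the MLP-like locus only. Between bark means lay 82.7% of the variance of the MLP-like locus, which again includes the rhytidome-like level used for the choice.

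**Figure D1:**
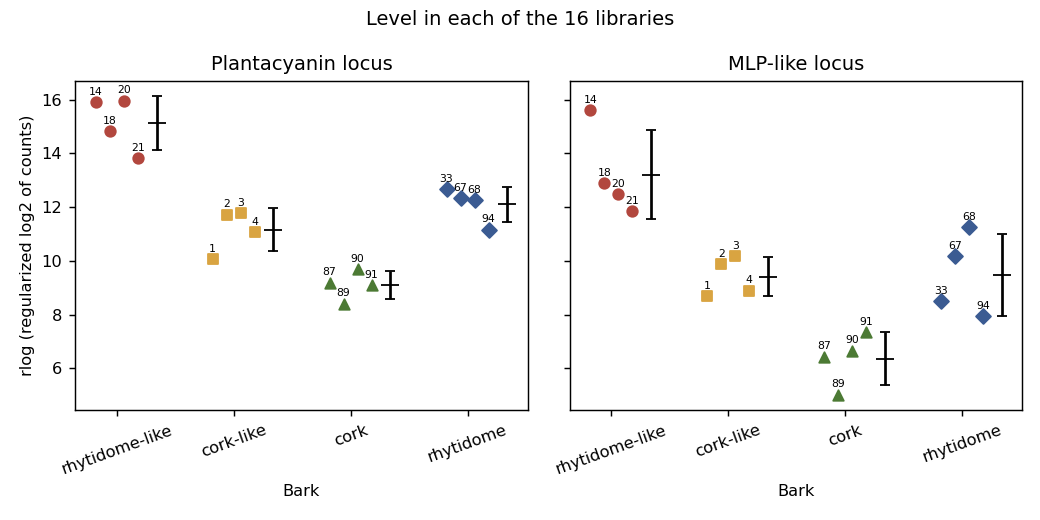
Level (rlog, regularized log2 of counts) of the plantacyanin locus and of the MLP-like locus in each library of rhytidome-like, cork-like, cork and rhytidome bark. Points are libraries with their tree number, or 1 (north), 2 (south), 3 (east) and 4 (west) for the cork-like tree, and bars are the mean ± SD of 4 libraries. The rhytidome-like libraries start at 13.82 and 11.84, above the highest other libraries at 12.67 and 11.26.

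Of all 25617 loci, 6.37% had their 4 rhytidome-like libraries above the other 12 and 7.64% their 4 cork libraries below the other 12. The choice of the loci fixed the first of these. It also favoured the second, since the other 12 include the rhytidome-like libraries, so nothing is read from either. In both loci the bark means ran, from low to high, through cork, cork-like, rhytidome and rhytidome-like, an order shared by 8.64% of loci. The choice put rhytidome-like bark last in this order, so nothing is read from that share. Neighbours in this order were cork-like bark and rhytidome, which were not separated beyond their spread at either locus, as the tests below show.

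Differences among the barks other than rhytidome-like were not what the choice used, and these barks were compared with limma over all loci, where a call needed an adjusted p under 0.01 together with a log2 difference beyond 1 in size. These comparisons share libraries with each other and with the differences described above. Cork was lower than rhytidome at both loci. At the plantacyanin locus the means were 9.10 in cork and 12.10 in rhytidome, a log2 difference of -3.01 (standard error 0.49, 95% interval -4.05 to -1.97, adjusted p = 0.00012 from limma), or 8.05-fold lower. At the MLP-like locus they were 6.36 in cork and 9.47 in rhytidome, a difference of -3.11 (standard error 0.81, 95% interval -4.82 to -1.39, adjusted p = 0.0048 from limma), or 8.61-fold lower. Both loci were thus called lower in cork, where 17.7% of all loci tested were called lower and the median difference of all loci was -0.16. All 4 cork libraries lay below all 4 rhytidome libraries at both loci, as at 25.2% of loci, a share that counts this direction only. The two-sided exact permutation test gave p = 0.0286 for each, the smallest that 4 against 4 libraries allow. The call of the MLP-like locus ended when 1 of cork 87, cork 89, rhytidome 67 or rhytidome 68 was left out, with differences of -3.13, -2.66, -2.87 and -2.51 in that order and adjusted p from limma up to 0.019.

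Cork-like bark was higher than cork at both loci. The plantacyanin locus averaged 11.15 in cork-like bark and 9.10 in cork, a difference of 2.06 (standard error 0.49, 95% interval 1.02 to 3.09, adjusted p = 0.0049 from limma). The MLP-like locus averaged 9.41 in cork-like bark and 6.36 in cork, a difference of 3.05 (standard error 0.81, 95% interval 1.33 to 4.76, adjusted p = 0.0096 from limma). In this comparison 8.46% of all loci tested were called higher in cork-like bark. All 4 sides of the cork-like tree were above all 4 cork trees at both loci, as at 24.5% of loci. The two-sided exact permutation test over libraries gave p = 0.0286, again the smallest that 4 against 4 libraries allow. It counts the 4 sides of 1 tree as if they were separate trees, so this p does not cover differences between cork-like trees. The south side of the cork-like tree, the side from which the cork libraries came, was at 11.71 at the plantacyanin locus and at 9.88 at the MLP-like locus, against at most 9.68 and 7.34 in cork.

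These calls were close to the threshold and rest on 1 hybrid tree. With its 4 libraries averaged to 1, the differences stayed at 2.06 and 3.05 while adjusted p from limma was 0.15 and 0.25, so neither locus was called. The call of the plantacyanin locus also ended without cork 87, 89 or 91 or without cork-like 2, 3 or 4, with differences from 1.83 to 2.09 and adjusted p up to 0.02. That of the MLP-like locus ended without any 1 of cork 87, 89 and 90, the 4 cork-like libraries, rhytidome 33 and 67 or rhytidome-like 18 and 20, with differences from 2.60 to 3.29 and adjusted p up to 0.034.

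Cork-like bark and rhytidome were not separated at either locus, and 0 of the 2 loci were called by limma, also 0 at an unadjusted p under 0.05 and 0 in the exact permutation test, where 21.5% of all loci were called in either direction. At the plantacyanin locus the means were 11.15 in cork-like bark and 12.10 in rhytidome, a difference of -0.95 with a 95% interval from -1.99 to 0.09 (adjusted p = 0.13 from limma, p = 0.143 in the two-sided exact permutation test). At the MLP-like locus they were 9.41 in cork-like bark and 9.47 in rhytidome, a difference of -0.06 with an interval from -1.78 to 1.66 (adjusted p = 0.96 from limma, p = 0.971 in the two-sided exact permutation test). These intervals leave room for differences of more than 1 at both loci.

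**Figure D2:**
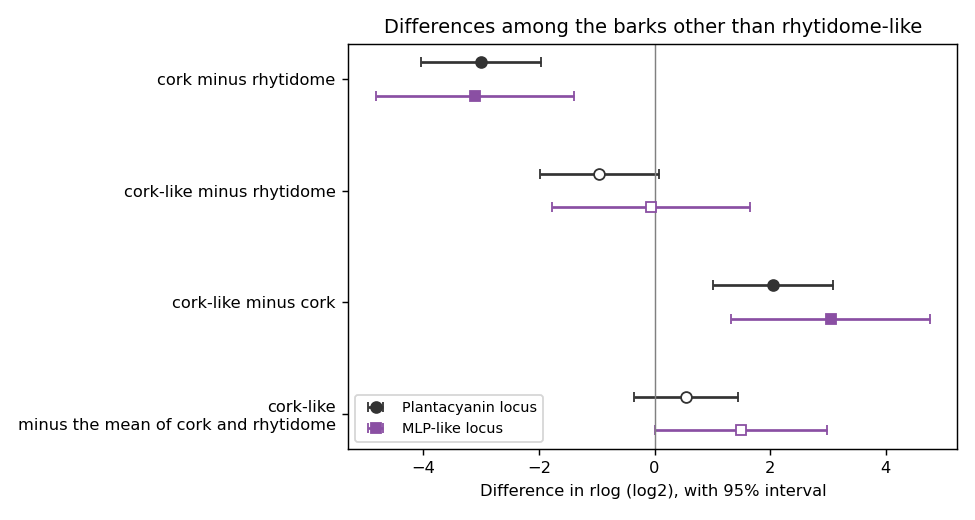
Differences in rlog (log2, x axis) between barks other than rhytidome-like at the plantacyanin locus (circles) and the MLP-like locus (squares), with 95% intervals from limma over 16 libraries. Filled symbols passed the test and open symbols did not. Cork minus rhytidome lies at -3.01 and -3.11, cork-like minus cork at 2.06 and 3.05, and the intervals of cork-like minus rhytidome include 0.

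On a scale running up from cork to rhytidome, cork-like bark lay at 68.3% for the plantacyanin locus and at 98.1% for the MLP-like locus. Against the mean of these barks, the plantacyanin locus of cork-like bark (11.15) was 0.55 higher, with a standard error of 0.42 and a 95% interval of -0.35 to 1.45 (limma, adjusted p = 0.34). The MLP-like locus (9.41) was 1.49 higher, with a standard error of 0.70 and a 95% interval of 0.01 to 2.98 (limma, adjusted p = 0.12). By limma 0 of the 2 loci were called here, 1 had an unadjusted p under 0.05 (0.0492, the MLP-like locus), and 12.2% of all loci were called in either direction. Rhytidome-like bark in contrast had all 4 libraries above all 8 parental libraries at both loci, as at 7.53% of loci, a description since the choice used it. Whether the hybrids differ in their distance from the parents was not tested, because that comparison uses rhytidome-like bark.

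The spread between libraries of a bark was set beside that of loci whose mean in the same bark was within 1 rlog. For the plantacyanin locus the SD was 1.01 in rhytidome-like bark, 0.80 in cork-like bark, 0.52 in cork and 0.66 in rhytidome, against median SDs of 0.37, 0.15, 0.23 and 0.24 for such loci in the same barks. Of these loci, 98.2% had a smaller SD in rhytidome-like bark, 99.7% in cork-like bark, 82.4% in cork and 93.5% in rhytidome. Against loci of every level the shares were 83.2% in rhytidome-like bark, 96.2% in cork-like bark, 69.6% in cork and 69.5% in rhytidome, so the spread of this locus stood out most between the sides of the cork-like tree. For the MLP-like locus the SD was 1.66 in rhytidome-like bark, 0.73 in cork-like bark, 0.98 in cork and 1.53 in rhytidome. Of loci of like level in the bark, 99.9% had a smaller SD in rhytidome-like bark, 98.7% in cork-like bark, 78.6% in cork and 98.9% in rhytidome. Against loci of every level these shares were 95.3%, 94.7%, 87.9% and 93.8% in the same barks. The 4 sides of the cork-like tree spanned 1.73 at the plantacyanin locus, more than the 4 cork trees (1.27) and the 4 rhytidome trees (1.52). At the MLP-like locus the sides spanned less than the 2.33 of cork and the 3.32 of rhytidome.

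**Figure D3:**
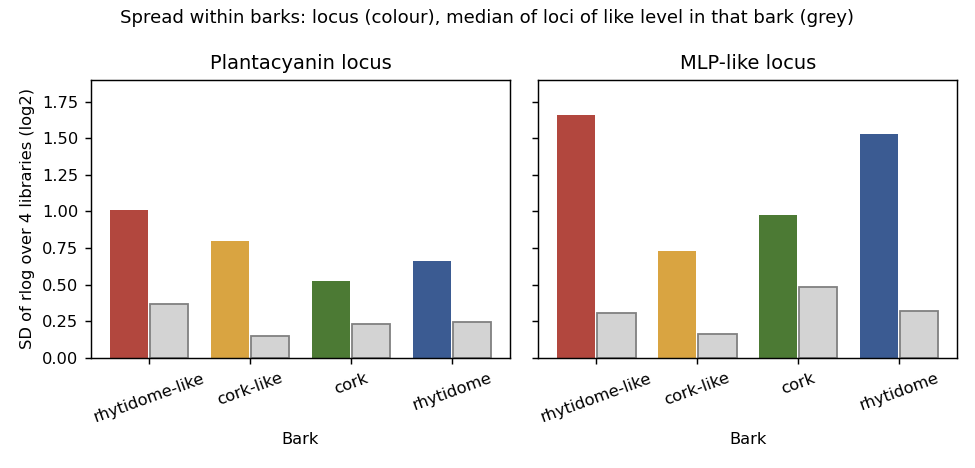
SD of rlog (log2) over the 4 libraries of each bark for the plantacyanin locus and the MLP-like locus (coloured bars), beside the median SD of loci whose mean rlog in that bark is within 1 of theirs (grey bars). The coloured bars exceed the grey ones in every bark, with the highest at 1.66 for the MLP-like locus in rhytidome-like bark.

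Within barks, the loci tended to be high or low in the same libraries, which the choice by bark means did not use. The lowest library was the same at both loci in all 4 barks, namely rhytidome-like 21, the north side of the cork-like tree, cork 89 and rhytidome 94. The same 4 libraries were the lowest at 0.960% of all loci. Of the 16 libraries, 13 lay on the same side of their bark mean at both loci, with the exceptions of rhytidome-like 20, cork 91 and rhytidome 33. After subtracting bark means, Pearson's r between the loci was 0.61 over the 16 libraries. It was 0.53 without rhytidome 94, 0.54 without rhytidome-like 14 and 0.57 as Spearman's rho, and 2.67% of the other 25616 loci had an r with the plantacyanin locus at least as high. These points share libraries and their depth scaling, with only 4 in each bark, and the value is a description. The library median of all loci tested was the lowest of its bark in cork 89 and on the north side of the cork-like tree. It was the highest of its bark in rhytidome 94 and ranked 3 from the lowest in rhytidome-like 21. After centring libraries on their medians r was 0.60, and the cause of the shared low libraries was not tested.

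**Figure D4:**
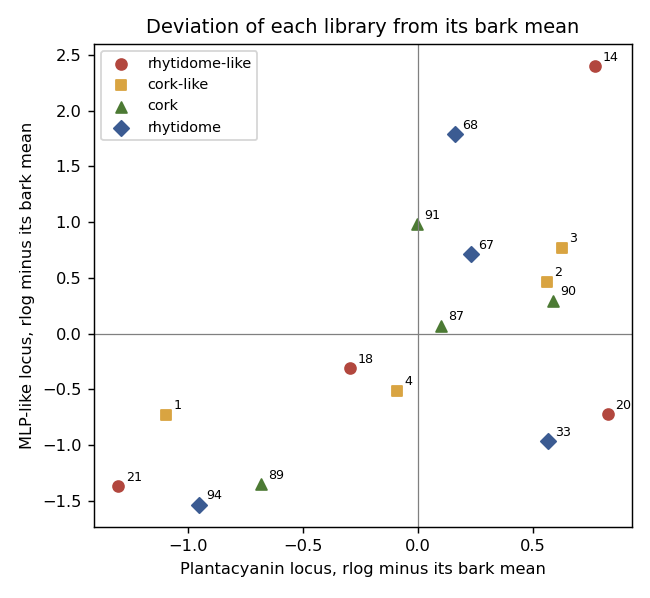
Deviation of each library from its bark mean (rlog, log2) at the plantacyanin locus (x axis) and at the MLP-like locus (y axis), with symbols for the 4 barks and library numbers beside them. Rhytidome-like 21, cork-like 1 (north), cork 89 and rhytidome 94 lie at the lower left, low at both loci, and rhytidome-like 14 is 2.40 above its bark mean at the MLP-like locus.

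Over all 16 libraries Pearson's r between the loci was 0.93, a value that includes the high rhytidome-like levels by which both were chosen. Over the 12 libraries of the other barks it was 0.86. Likeness was compared over 375 other loci that averaged 5 rlog or more and had a name in the study's gene tables. These tables include genes that the study selected by their expression in these same libraries, so the named loci are not a neutral sample of all loci. Over the 12 libraries, 23 of the named loci had a higher r with the plantacyanin locus than the MLP-like locus did, and 11 had a higher r with the MLP-like locus than plantacyanin did. Over all 16 libraries these numbers were 7 and 0. Among all 25616 other loci tested, named or not, they were 725 and 258 over the 12 libraries. Over the 16 libraries they were 125 and 14, so the named loci below are not the nearest of all loci. Plantacyanin was thus the nearest named locus to the MLP-like locus only with rhytidome-like bark included. The MLP-like locus was not the nearest named locus to plantacyanin in either set of libraries.

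The named locus nearest to plantacyanin was matched to protein arginine methyltransferase 10 (LOC112032753), an enzyme that methylates arginines of proteins such as histones and is known in Arabidopsis for flowering time. It had an r of 0.96 over 16 libraries, with 13.50 ± 0.16 rlog in rhytidome-like bark, 11.66 ± 0.13 in cork-like bark, 11.10 ± 0.15 in cork and 12.03 ± 0.28 in rhytidome (SD, n = 4 libraries each). It followed the same order of barks on a narrower scale, with rhytidome-like bark 2.40 above cork, against 6.03 at the plantacyanin locus. A locus matched to phosphoinositide 4-kinase gamma 7 (LOC111996833) came next with an r of 0.95, and rhytidome-like bark was 2.56 above cork there. LOC112005619, named for the UDP-glycosyltransferase superfamily, whose Arabidopsis match AT1G32900 is a granule-bound starch synthase, had an r of 0.95 and the wider span of 6.90 between rhytidome-like bark and cork. In contrast to plantacyanin, its rhytidome mean (15.68) was closer to its rhytidome-like mean (17.65) than to its cork-like mean (12.92). A FRIGIDA-like locus (LOC111986594), of a family named after FRIGIDA, which delays flowering in Arabidopsis, and KNAT1 (LOC112015571), a homeobox factor of meristems and vascular tissue, had an r of 0.94 each. From these same libraries, the paper names KNAT1 and FRIGIDA-like genes among the most expressed developmental genes of its clusters high in rhytidome and rhytidome-like bark.

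For the MLP-like locus, the nearest named locus over the 16 libraries was plantacyanin, followed by a further locus matched to phosphoinositide 4-kinase gamma 7 (LOC112020819), with an r of 0.91. Over the 12 libraries without rhytidome-like bark LOC112020819 had an r of 0.88 with the MLP-like locus, and plantacyanin 0.86. The methyltransferase locus (r = 0.91), another FRIGIDA-like locus (LOC112034633, r = 0.90) and LOC111996833 (r = 0.90) filled the other places. LOC112034633 was the one of these whose rhytidome-like libraries overlapped those of other barks, and of the 5 it had the highest r with the MLP-like locus after bark means were subtracted, 0.76. The lists of the loci share 2 loci, the methyltransferase and LOC111996833. All of these were picked for their likeness over libraries that include rhytidome-like bark and are a description over libraries that fall into 4 barks, without a test. Ranked by Spearman's rho instead, 1 of the 5 named loci remained among the first 5 for each locus.

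**Figure D5:**
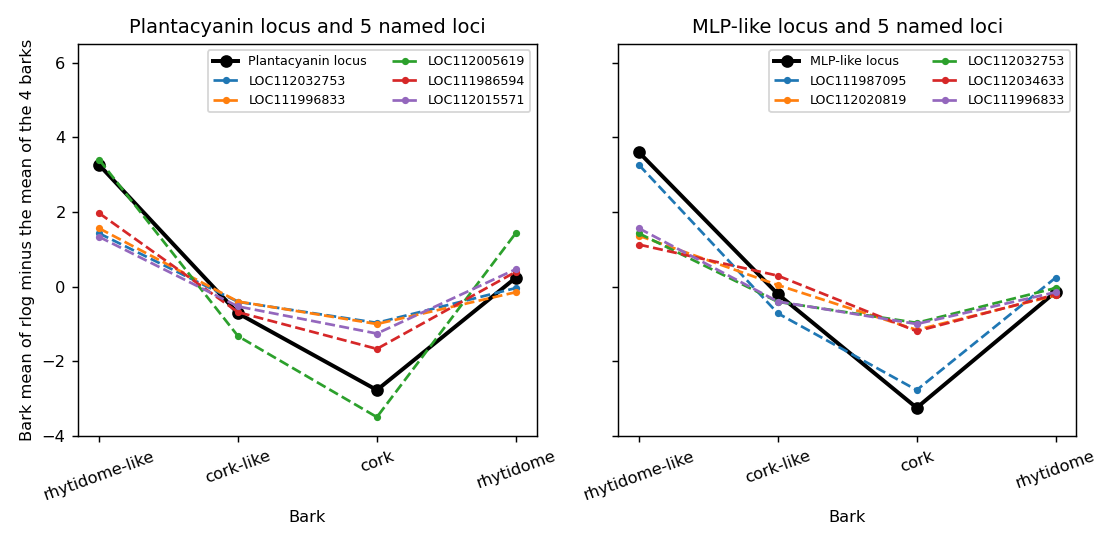
Mean rlog of each bark minus the mean of the 4 barks (y axis, log2) for the plantacyanin locus and the MLP-like locus (solid black) and the 5 named loci of most similar pattern for each (dashed). All are highest in rhytidome-like bark and lowest in cork, and most dashed lines span a narrower range than the 6.03 and 6.85 between these barks at the plantacyanin and MLP-like loci.

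Other members of the families could hardly be followed, since names were at hand for 879 of the 47292 loci. The only further locus whose name fell under the terms for phytocyanins was LOC111984172, matched to a cupredoxin superfamily protein, AT1G23010, which in Arabidopsis is a multicopper oxidase of the root response to phosphate and not a phytocyanin. Its rlog was -2.13 to -1.93 over the 16 libraries, the level of loci with hardly any reads, and it did not enter the tests. No other named locus fell under the terms for MLP and Bet v 1 proteins, and none under those for copper transport. MLP genes form families of similar copies in plants, and only reads mapped to a single place were counted, so the level of the MLP-like locus is uncertain to the extent that it shares sequence with such copies.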

How the data were processed

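Per the labels and methods, the authors cut 12 bases from each read (Trimmomatic 0.40), aligned with GSNAP to CorkOak1.0, kept unique concordant pairs and counted them per locus with HTSeq 0.11.1. Cufflinks 2.2.1 and DESeq2 1.38.3 also appear in the processing notes. The strand setting of the counting was not found in the sources read. The deposited values are rlog, a regularized log2 of the counts scaled for depth. Counts, and so depth per library, were not used here.

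All 16 libraries entered a limma fit (version 3.58.1, R 4.3.3) to rlog, with 1 mean for each bark and a variance trend, over 25617 loci averaging at least 1 rlog. Benjamini-Hochberg adjustment was within each comparison. P-values from limma use 1 spread per locus, pooled over the 4 barks. This mixes spread between trees with spread between sides of the 1 cork-like tree. Cork minus rhytidome thus also draws on the spread within the other barks. The exact permutation test used only the libraries of the barks compared. With cork-like bark it took the sides of the 1 tree as if they were separate trees. The limma fit was also run on simulated data in which libraries were independent and only cork was changed. That run does not cover libraries that share 1 tree. Other values came from Python 3.11.15 (numpy 2.4.6, pandas 2.3.3, scipy 1.17.1) and figures from matplotlib 3.10.9.

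The loci and lists were chosen with earlier results of these data known. Named are the chosen loci, the 5 named loci of highest Pearson's r with each (averaging at least 5 rlog) and family members found by name. Names are the Arabidopsis matches in the study's gene tables. No sequence was used. Alternatives changed the scaling, filter, variance, libraries, threshold and adjustment, or added the study's percentage of mapped reads as covariate. Those on covariation, likeness, spread and shares of loci were chosen after seeing the data.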

Additional observations from a re-analysis of the deposited data

Results flagged for a closer look

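The level of a library was set against the other 3 of its bark at 9 loci, the plantacyanin and MLP-like loci and the named loci like them, by Dixon's test for an extreme value. Of 36 groups of 4 libraries, 2 were past the 95% critical value for the gap over the range, where chance gives about 1 in 20. Rhytidome 94 was at 11.61 rlog at the methyltransferase locus LOC112032753, against 12.14 to 12.23 in the other rhytidome libraries. Rhytidome-like 21 was at 16.72 at the UDP-glycosyltransferase locus LOC112005619, against 17.86 to 18.08 in the other rhytidome-like libraries. These libraries were also lowest of their bark at the plantacyanin and MLP-like loci. Both flagged loci were picked for likeness to the plantacyanin locus over these same libraries, so sharing its low libraries is partly built in. At the plantacyanin and MLP-like loci the gap over the range did not pass the critical value in any bark (at most 0.733, at the plantacyanin locus in rhytidome).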

How the results depend on the processing

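The difference between cork and rhytidome at the plantacyanin locus stayed called in all 12 settings (-3.48 to -2.77) and without each library (-3.33 to -2.78). Among the settings, the exact permutation test was judged at an unadjusted p under 0.05, since it cannot reach the 0.01 asked of limma. At the MLP-like locus it was lost with the cork-like libraries averaged to 1 (-3.11, adjusted p = 0.012 from limma) and when testing for a change above 1 with treat (-3.11, adjusted p = 0.06), and ranged from -3.62 to -2.51 without 1 library. Cork-like minus cork at the plantacyanin locus was lost with these libraries averaged (2.06, adjusted p = 0.15) and with treat (2.06, adjusted p = 0.27), and ranged from 1.83 to 2.42 without 1 library. At the MLP-like locus it was lost in 7 of 12 settings, with values of 3.05 when averaged (adjusted p = 0.25), 2.92 with median centring (0.011), 3.05 with no filter (0.018), 3.70 with the percentage of mapped reads as covariate (0.011), 2.86 with quantile normalization (0.013), 3.05 with treat (0.17) and 3.05 with no trend of the variance (0.014), and ranged from 2.60 to 3.37 without 1 library. The cause was not tested. The comparisons of cork-like bark with rhytidome and with the mean of the parental barks were not called in any setting. Without 1 library, cork-like minus rhytidome ran from -1.27 to -0.59 at the plantacyanin locus and from -0.57 to 0.54 at the MLP-like locus. Cork-like bark minus the parental mean ran from 0.34 to 0.92 at the plantacyanin locus and from 1.24 to 1.79 at the MLP-like locus. Median centring changed the share of loci with rhytidome-like libraries above the other 12 to 11.6%. Leaving out rhytidome-like bark changed the number of named loci nearer than the other locus to 23 for plantacyanin and to 11 for the MLP-like locus. No paired analysis was possible because the barks share no replicate numbers. Counts of list members called could not be given, as no list member other than the described loci passed the filter, and the exact permutation test was not run for the mean of the parental barks. With 4 libraries a bark the intervals were wide, and the smallest difference that could be detected at these loci was not computed.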
